A study of Mus musculus with 11 samples.

Results

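The 9 genes examined here encode the constant parts of the mouse antibody heavy chains μ (Ighm), δ (Ighd), γ3 (Ighg3), γ1 (Ighg1), γ2b (Ighg2b), γ2c (Ighg2c) and α (Igha), the constant part of the κ light chain (Igkc), and the joining chain (Jchain). They were matched by symbol and are 9 of the 31053 genes counted in each library. RNA was read by droplet 3′ single-cell sequencing of dissociated whole lung in 11 libraries, so a gene's level is given as UMIs (unique molecular identifiers) per 1000000 UMIs of the same cells, abbreviated CPM. These counts are not scaled by gene length and reflect capture of the RNA's 3′ end, so levels are compared within a gene, across cells and libraries. Per the labels, 1 library came from a wild type mouse lung (WT, +/+ at p21), 3 from p21 heterozygotes (p21Het, +/-), 5 from p21 mTert mice (+/mTert) and 2 from p21 mTertCD mice (+/mTertCD). The p21Het, p21mTert and p21mTertCD lungs thus share 1 normal p21 allele, and the series title places mTert, the mouse telomerase reverse transcriptase, in p21-positive cells. The labels do not say what CD stands for. The age label is 18 months for all but p21Het_1 (19 months) and p21mTert_1 (20 months), although the titles of all libraries carry the same age. WT_1, p21Het_1 and p21mTert_1 were deposited first and the other 8 libraries later. Dispase and agarose were filled into the lungs through the trachea before digestion, in the same way for all, and the number of mice behind a library is not given, so p-values measure the spread between libraries only.

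An antibody is built of heavy and light chains, and each B cell makes one heavy and one light chain type. A resting B cell carries IgM and IgD on its surface from one transcript that is spliced to Ighm or Ighd. Class switching cuts out the DNA between the variable region and a downstream constant gene, so that the cell then makes IgG, IgA or IgE with the same variable region. Plasma cells secrete the product, and the joining chain links secreted IgM into pentamers and IgA into dimers, the forms that the polymeric immunoglobulin receptor (Pigr) carries across the airway epithelium.

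The 7 heavy-chain genes lie in a row on the minus strand of chromosome 12 and span 167901 bases from the end of Igha to the start of Ighm (GENCODE M21 on mm10), in transcription order Ighm (113418558 to 113422730), Ighd (113406604 to 113416324), Ighg3 (113356224 to 113361232), Ighg1 (113325240 to 113330523), Ighg2b (113302965 to 113307933), Ighg2c (113285325 to 113288932) and Igha (113254830 to 113260236). Ighe, the IgE constant gene, lies between Ighg2c and Igha. Igkc is on the plus strand of chromosome 6 (70726435 to 70726966) and Jchain on the minus strand of chromosome 5 (88519809 to 88527891). All 9 gene identifiers of the files were found in the annotation. The ends of the secreted heavy chains are printed because the results on Jchain below turn on isotype, and it is a cysteine in this tail of the μ and α chains that binds the joining chain. Each run is the last 60 coding bases before the stop codon, 5′ to 3′ on the coding strand, with cysteine codons in capitals.
Ighm, chr12:113420870-113420929: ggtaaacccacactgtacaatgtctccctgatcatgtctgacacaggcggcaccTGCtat
Igha, chr12:113258771-113258830: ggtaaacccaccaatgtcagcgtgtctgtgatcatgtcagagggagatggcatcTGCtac
Ighg3, chr12:113359668-113359727: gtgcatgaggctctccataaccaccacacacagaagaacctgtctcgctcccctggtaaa
Ighg1, chr12:113328979-113329038: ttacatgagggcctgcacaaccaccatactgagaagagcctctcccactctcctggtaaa
Ighg2b, chr12:113306392-113306451: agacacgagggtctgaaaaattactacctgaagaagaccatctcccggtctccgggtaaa
Ighg2c, chr12:113287392-113287451: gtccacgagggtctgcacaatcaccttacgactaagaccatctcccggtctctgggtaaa
Ighm and Igha each held 1 cysteine codon in this window, the codon before the last, and the 4 IgG genes held 0. The windows of Ighm and Igha were 73.8% identical although their whole coding regions were 47.8% identical. Ighg2b and Ighg2c were 85.7% identical over the coding region and 82.8% over the last 300 transcript bases. The other IgG pairs were 74.1% to 75.9% identical over the coding region. Counting of reads of one IgG gene to another was not tested. Of plasma cells called IgG below, the 1 cell of p21mTertCD_2 had 98.8% of its heavy-chain UMIs from Ighg2b and 0% from Ighg2c. The 2 cells of p21mTert_2 had 52.0% from Ighg2c and 0.0174% from Ighg2b.

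The libraries held 5686 to 10525 barcodes each (81983 in all) and 42038434 to 85988955 UMIs. A barcode was kept if it had between 1000 and 30000 UMIs, no more than 14% of them mitochondrial, which left 69267. Of these, 462 were plasma cells (at least 3 UMIs of Derl3 and Tnfrsf17 together, both genes of the secretory stage), 16029 were B cells (at least 3 UMIs of Cd79a and Cd79b, the signalling chains of the B cell receptor, and fewer of the former pair) and 52776 were other cells. Of the plasma cells 433 also met the rule for B cells and were counted as plasma cells only. Markers that these rules do not use fitted both names. On average over libraries 98.9% of plasma cells had a UMI of Xbp1, 96.8% of Mzb1 and 83.4% of Sdc1, and 88.0% of B cells had a UMI of Ms4a1 and 70.7% of Pax5. Of the division genes, a UMI of Mki67 was found in 26.2% of plasma and 2.20% of B cells, of Top2a in 9.0% and 3.15% and of Birc5 in 4.42% and 1.09%, at the unequal depths given below. Per UMI, Mki67 was higher in plasma than in B cells (38.9 against 17.7 CPM), and Top2a (14.9 against 23.4) and Birc5 (5.98 against 7.45) were lower. There were 13 to 127 plasma cells per library. p21mTertCD_1 stood apart with 135 B cells, 2.06% of its kept cells, against 951 to 2420 in the others. The upper UMI limit cut into the plasma class: 314 of 776 barcodes that met the plasma rule without it had over 30000 UMIs, and results are given without the limit where they change. At most 0.322% of the kept barcodes of a library were shared with another.

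Plasma cells held the highest level of Igkc, Ighm and Jchain in 11 of 11 libraries. B cells came next for Igkc and Ighm in 10 of them, while in p21mTert_2 plasmacytoid dendritic cells (14 cells) were above B cells in both. Igkc, the light chain of most mouse antibodies, ran from 242794 to 416028 CPM in plasma cells (median 336446) and from 7926 to 52011 in B cells (median 12123). These ranges did not overlap, and within a library the plasma level was 6.65 to 37.5 times the B level (median 26.7). Ighm, the heavy chain of unswitched cells, ran from 33972 to 138136 CPM in plasma cells (median 72875) and from 2568 to 12954 in B cells (median 3472), again with no overlap. In order of replicate, plasma cell Jchain was 18477 CPM in WT, 45771, 27253 and 27540 in the heterozygotes, 30506, 24328, 32207, 34829 and 24509 in p21mTert and 28445 and 25096 in p21mTertCD. The 3 genotypes with replicates overlapped, and the single WT library was lowest. In B cells Jchain was spread far more, from 6.57 CPM in p21mTert_5 to 2710 in p21mTertCD_1. After each cell was thinned to 1000 UMIs, a UMI of Jchain was found in 93.2% of plasma cells, 3.45% of B cells and 1.60% of T cells (96.1%, 9.72% and 7.43% before thinning, at median depths of 22867, 4671 and 5873.5 UMIs). The 9 genes together made up 34.4% (p21mTert_5) to 58.6% (p21mTertCD_2) of the UMIs of a library's plasma cells.

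Ighd was higher in B cells than in plasma cells in 11 of 11 libraries. Its B level was 297 to 900 CPM (median 636), while plasma cells ran from 0 to 57.8 CPM (median 2.08), with no overlap. T cells held 0.233 to 6.72 CPM of Ighd, and the B level was 121 to 1274 times the T level of the same library (median 213). After thinning, a UMI of Ighd was found in 47.9% of B cells and 0.329% of T cells (83.1% and 2.00% before). Igha was higher in plasma than in B cells in 10 of 11 libraries (median ratio 120) and Ighg2b in 10 of 11 (median ratio 11.8). For Ighg3 this held in 6 of 11, for Ighg2c in 5 of 11 and for Ighg1 in 4 of 11.

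In plasma cells the switched heavy-chain genes ranged far more widely between libraries than Igkc and Jchain. Igha, the mucosal isotype, was 60276, 24571 and 18211 CPM in plasma cells of the heterozygotes, 9788, 18366, 16888, 35774 and 36628 in those of p21mTert, 21008 and 8.32 in those of p21mTertCD, and 90.8 in WT_1. WT_1 and p21mTertCD_2 were thus far under the lowest of the others, p21mTert_1. Ighg2c, an IgG2 gene that some mouse strains carry in place of Ighg2a, was 35848 CPM in p21mTert_1, 33380 in p21Het_2, 13903 in p21mTertCD_1 and 4384 in p21mTert_2, and 0 to 60.5 CPM in the other 7 libraries. Ighg1 was 9409 CPM in p21mTert_1, 3347 in p21mTert_3, 3231 in p21mTertCD_1 and 936 in p21Het_2, 3.58 in p21mTert_4 and 0 in the other 6. Ighg3 was 3982 CPM in p21mTert_2 and 3.50 to 248 elsewhere, while Ighg2b was found in all plasma samples, from 111 to 9812 CPM. With 13 to 127 plasma cells per library, these levels rest on few cells each.

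**Figure D1:**
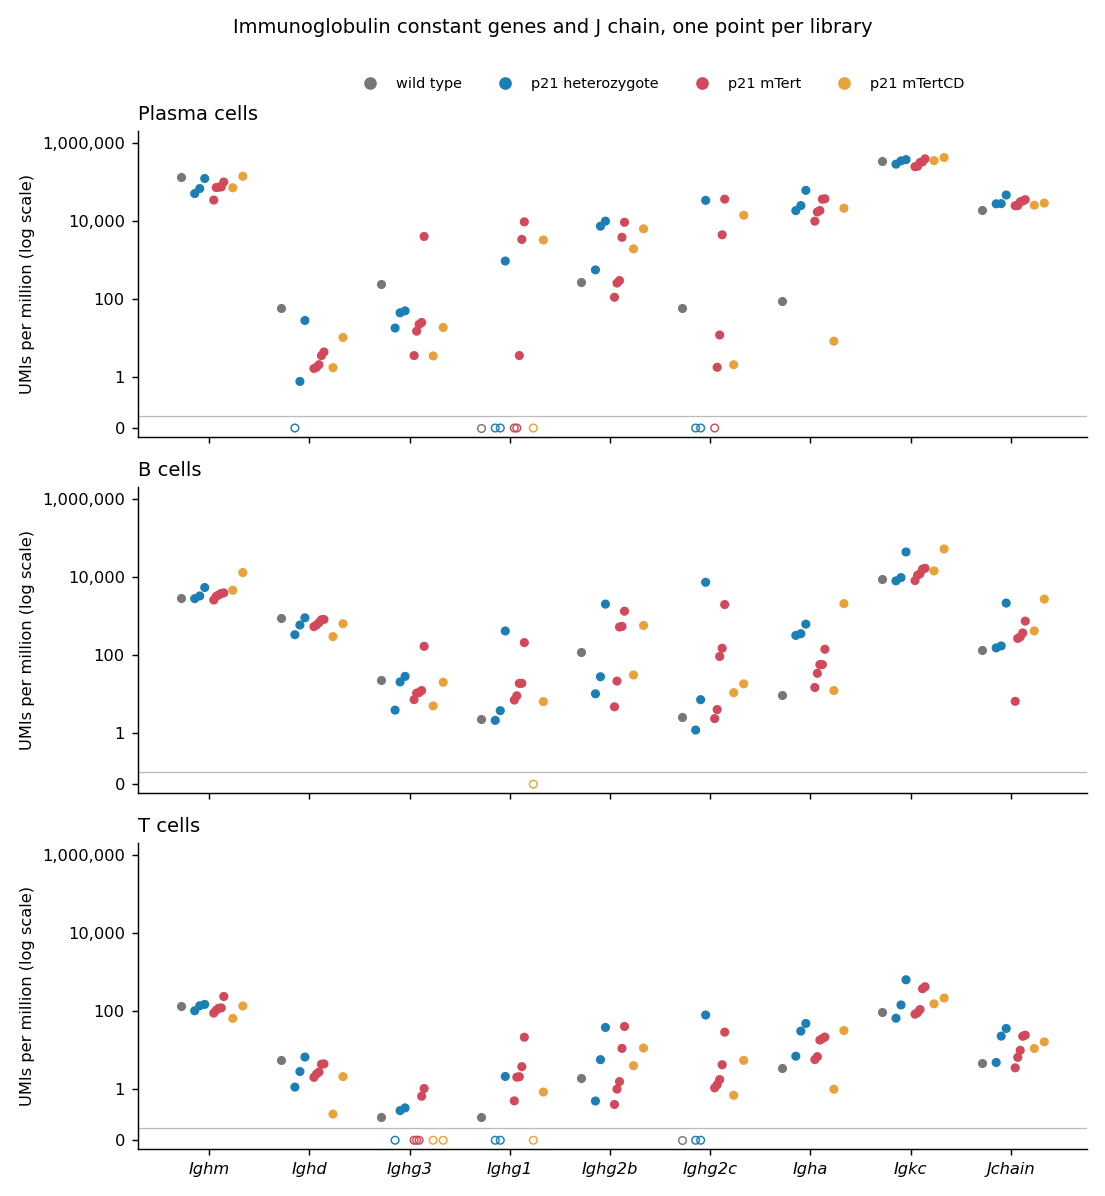
UMIs per 1000000 (CPM, log axis) of the 9 genes in plasma cells, B cells and T cells. Each point is 1 library coloured by genotype, and open circles at the bottom are libraries at 0. Ighd is the gene whose B cell points, 297 to 900 CPM, lie above all plasma cell points.

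Across 17 cell types, the genes outside the antibody loci with the most similar profile were taken by Pearson's r of log2 levels among 11131 genes, as a description, since types of one library share its depth and free RNA. Igkc was most like Mzb1 (r = 0.98), a chaperone of antibody assembly, and Jchain was most like Prg2 (0.97) and Mzb1 (0.96). Ighm was most like Gm34215 (0.96), and Igha most like Oosp1 (0.96) and Prg2 (0.95). Ighd was most like B cell surface genes and their regulator: Fcmr, the IgM receptor (0.90), Cr2, complement receptor 2 (0.90), and Pax5 (0.88).

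A plasma cell was given an isotype where at least 70% of its heavy-chain UMIs, of at least 10, came from Ighm and Ighd, from Igha or from the 4 IgG genes. Of 462 plasma cells 452 had one: 292 were IgM (64.6%), 94 IgA (20.8%) and 66 IgG (14.6%). The calls were clear-cut, with a median of 99.95% of heavy-chain UMIs from the called isotype, a lowest value of 86.2% and 449 of 452 cells at 90% or more. IgM cells were found in all libraries, from 38.5% of typed cells in p21Het_1 to 97.6% in p21mTertCD_2 (median 61.5%). IgA cells were found in 9 libraries, up to 58.3% in p21mTert_5 (median 20.0%). p21mTertCD_2 had 0 IgA cells of 41 (exact upper 95% limit 8.60%), beside 14 of 61 in p21mTertCD_1. IgG cells were found in 8 libraries, with 13 of 29 in p21mTert_1 (44.8%, exact 95% interval 26.4% to 64.3%) and 36 of 125 in p21Het_2 (28.8%), and at most 11.5% in any other. These intervals cover counting error only. Without the upper UMI limit the totals were 57.4% IgM, 23.1% IgA and 19.5% IgG.

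**Figure D2:**
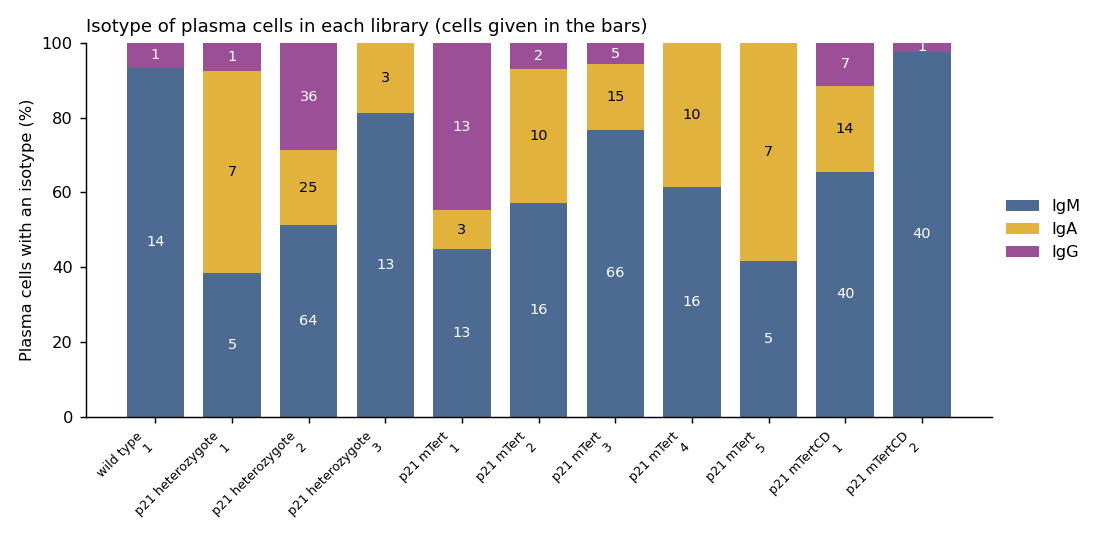
Share of IgM, IgA and IgG cells among plasma cells with an isotype, in percent, for each library, with cell numbers in the bars. IgM made up 38.5% to 97.6%, and IgG exceeded 11.5% in p21mTert_1 (44.8%) and p21Het_2 (28.8%).

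Among the 66 IgG plasma cells, 42 were called Ighg2c, 16 Ighg2b, 7 Ighg1 and 1 Ighg3 by their leading gene. Most came from p21Het_2: Ighg2c led in 28 of its 36 IgG plasma cells, in 9 of 13 of p21mTert_1, 4 of 7 of p21mTertCD_1 and 1 of 2 of p21mTert_2, and in 0 of those of the other 4 libraries with any, which had 1 to 5 each. Among 248 IgG B cells the leading gene was Ighg2b in 117, Ighg2c in 67, Ighg1 in 45 and Ighg3 in 19. p21Het_2, whose T cells often met the rule for switched cells too (below), held 75 of these cells and 31 of those led by Ighg2c. κ cells outnumbered λ cells in both classes, with 447 κ and 11 λ plasma cells and 14889 κ and 1046 λ B cells. The λ constant genes were spread widely over libraries in plasma cells, from 1004 to 16501 CPM for Iglc1, 1437 to 56796 for Iglc2 and 355 to 22996 for Iglc3. Ighe RNA was near 0 everywhere, at most 0.314 CPM as a mean over libraries (in B cells). Ighg2b averaged 446 ± 277 CPM (SD, n = 7 libraries) in IgA plasma cells and 34.0 ± 54.4 (n = 8) in IgM plasma cells, beside 29.7 ± 47.4 (n = 11) in cells that are neither plasma nor B cells and 10.6 ± 14.9 in T cells. Between IgA and IgM cells its log2 fold change was 3.79, given as a description, since Ighg2b is among the genes that define the isotypes. The part of free RNA in these levels was not tested.

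Jchain was lower in IgG plasma cells than in IgM and IgA plasma cells. It was 18277 CPM in p21mTert_1, 12349 in p21mTert_3, 13115 in p21Het_2 and 7023 in p21mTertCD_1 IgG plasma cells, the 4 libraries with at least 5 such cells. In IgM plasma cells of 8 libraries it ran from 26142 to 48408 CPM, and in IgA plasma cells of 7 libraries from 23046 to 49672. Every IgG value of these sums thus lay under every IgM and IgA value, which held for 2.16% of all 2222 genes tested (in either direction) between IgG and IgM and 7.61% between IgA and IgG. In the 4 libraries with at least 5 cells of both, IgG cells were below IgM cells. Libraries with fewer IgG cells were left out. Among them p21mTert_2 (2 IgG cells) went the other way, with 33069 CPM in IgG against 26142 in IgM and 23046 in IgA cells. WT_1, p21Het_1 and p21mTertCD_2, with 1 IgG cell each, had 305, 5419 and 21020 CPM, under their IgM cells (20082, 48408 and 25224). The WT_1 IgG cell held little antibody RNA of any kind, with 1593 CPM of Igkc and 3999 of heavy-chain genes. The IgM cells of WT_1 held 366033 and 143217 CPM. With library as a block in the fit, Jchain was 12691 ± 4605 CPM (SD, n = 4) in IgG against 33201 ± 7121 (n = 8) in IgM cells, a log2 fold change of -1.57 (SE 0.29, edgeR adjusted p = 0.0175, where 0.495% of all genes passed). It was 38042 ± 10795 (n = 7) in IgA cells, 1.41 above IgG on the log2 scale (SE 0.29, edgeR adjusted p = 0.0221, where 2.52% passed). The difference between IgA and IgM cells did not pass (log2 fold change -0.16, SE 0.22, edgeR adjusted p = 0.741), IgA was the higher in 3 of 7 libraries, and the sign of the fit was opposite to that of the mean CPM. The IgG cells are those whose chain ends, printed above, hold no cysteine codon, and a link of these ends to the level of Jchain RNA was not tested. The call against IgM was lost without the upper UMI limit (log2 fold change -0.86, edgeR adjusted p = 0.53), without p21mTert_3 (-1.69, adjusted p = 0.074) and without p21mTertCD_1 (-1.46, 0.128). The call against IgA was lost without the limit (1.34, adjusted p = 0.0927) and without p21Het_2 (1.34, 0.078), p21mTert_3 (1.44, 0.116) or p21mTertCD_1 (1.26, 0.0996).

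Igkc was 264592 ± 61799 CPM (SD, n = 7) in IgA and 353506 ± 75352 (n = 8) in IgM plasma cells and was lower in IgA cells in 6 of 7 libraries. The log2 fold change of -0.76 (SE 0.23) just missed the threshold (edgeR adjusted p = 0.0509), and DESeq2 called it (adjusted p = 0.0134). It was -0.28 without the upper UMI limit (edgeR adjusted p = 0.766) and -0.57 with doublets left out (0.16). Igkc in IgG cells lay within the IgM range (log2 fold change 0.00, adjusted p = 1.00).

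**Figure D3:**
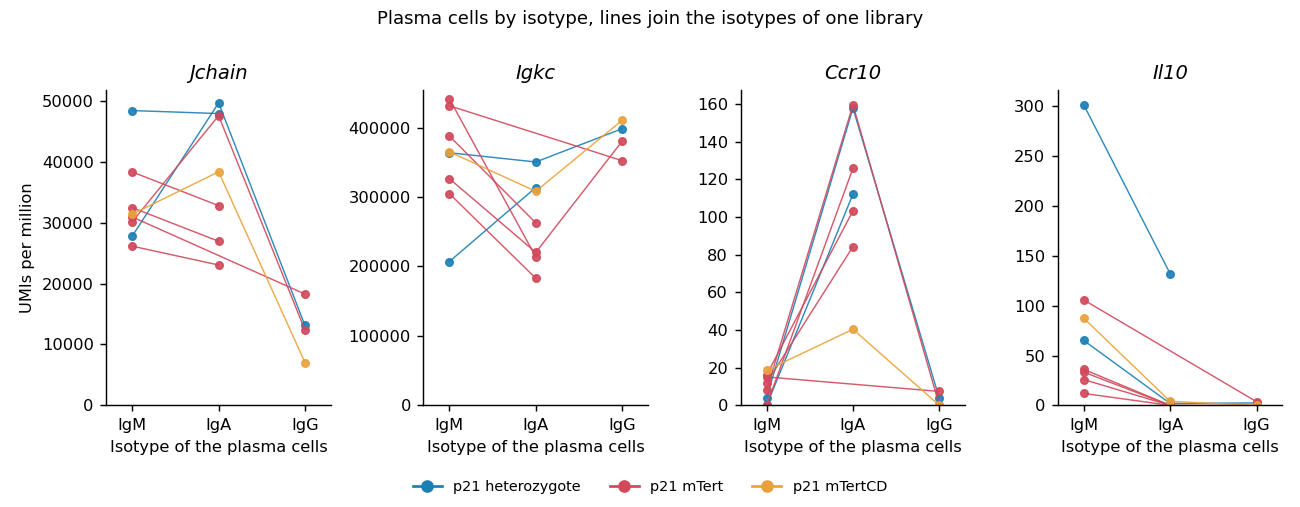
Levels (CPM) of Jchain, Igkc, the chemokine receptor Ccr10 and the cytokine Il10 in IgM, IgA and IgG plasma cells. Each point is the sum of the cells of 1 library, for sums of at least 5 cells, with lines joining the isotypes of a library. Jchain in IgG cells (7023 to 18277) lies under all other Jchain points.

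More genes passed between IgA and IgM plasma cells, with 7 and 8 libraries, than between IgG and IgM cells, with 4 IgG libraries. Of 2222 genes tested, 218 (9.81%) passed between IgA and IgM (97 or 4.37% higher and 121 or 5.45% lower in IgA), 11 (0.495%) between IgG and IgM and 56 (2.52%) between IgA and IgG. Without the upper UMI limit 109 of the 218, 7 of the 11 and 26 of the 56 were called again. Between IgG and IgM cells, antibody gene segments and Jchain together made up 4 of the 6 higher and 2 of the 5 lower genes. The class-defining genes are among these segments, and Jchain is among the lower genes. Ccr10, the receptor that draws IgA plasma cells to mucosal epithelium, was 40.4 to 160 CPM in IgA and 0 to 18.6 in IgM cells (log2 fold change 3.53, edgeR adjusted p = 0.000611). A gene was named only if it went the same way in every library holding both isotypes, as Ccr10 did in 7 of 7. Against IgG cells it was 5.10 higher on the log2 scale, a call lost without p21Het_2 or p21mTert_3 (adjusted p = 0.078 and 0.06). Pycard, an inflammasome adaptor, averaged 1150 CPM in IgA against 116 in IgM cells (2.48), Crip1 2256 against 311 (2.39) and the B lineage gene Vpreb3 99.4 against 12.6 (3.02). Anxa2 (2.84) and Atp1b1 (2.65) were the other genes named as higher, and Atp1b1 lost its call without p21mTert_3 (edgeR adjusted p = 0.0554). Il10, an anti-inflammatory cytokine, was lower in IgA than in IgM cells (19.7 against 83.3 CPM, log2 fold change -3.30) and at 0 to 3.70 CPM in IgG cells (-4.83). The amino acid transporter subunit Slc3a2 was lower in IgA cells (266 against 804 CPM, -1.98) and in IgG cells (-1.43), and Oosp1 (-2.45), Clec2g (-2.37), Ptpre (-2.08) and the metallothionein Mt2 (-2.01, not called without the upper UMI limit) were lower in IgA. IgG cells were higher than IgM cells in Ly6c2 (957 against 114 CPM, 2.78) and Epcam (85.5 against 19.4, 2.05). They were lower in Txndc5, a disulfide isomerase of the secretory path (410 against 1150 CPM, -1.67). Without the upper UMI limit the calls of Txndc5 (edgeR adjusted p = 0.0772) and Slc3a2 (0.488) between IgG and IgM were lost, and that of Ly6c2 was lost without p21Het_2 (0.0736) or p21mTert_1 (0.056).

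Of 26 genes of antibody secretion, 0 were higher and 5 lower in IgA than in IgM cells, beside 4.37% of all genes higher and 5.45% lower (Sdc1 -0.97, Herpud1 -1.41, Dnajb9 -1.01, Spcs2 -0.43, Trp53inp1 -0.68), with a list median of -0.13 beside 0.01 for all genes. Of 6 tested genes of class switching and survival signals, Ccr10 and the gut-homing integrin chain Itgb7 (1.47) were higher and Cxcr4 (-1.49), the bone marrow homing receptor, and Tnfrsf13c (-1.43), the BAFF receptor, were lower in IgA cells. The inhibitory Fc receptor Fcgr2b was lower in IgA cells (-1.92), and Iglc3 was the 1 lower of 3 λ constant genes (-2.17). Between IgG and IgM cells Txndc5 was the only secretion gene that passed. Between IgA and IgG cells Txndc5 (1.42), Fkbp11 (-1.19) and Dnajb9 (-1.15) passed, as did Blnk (-0.92) and Cxcr4 (-1.64). These secretion calls depended on the upper UMI limit: without it 0 of the 26 genes were lower and 1, Sec11c, was higher in IgA than in IgM cells, and 0 passed in the other two contrasts. Blnk and Iglc3 were not called without it either, while Ccr10, Itgb7, Cxcr4, Tnfrsf13c and Fcgr2b were called again between IgA and IgM.

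Among B cells, 363 were switched (at least 70% of at least 3 heavy-chain UMIs from Igha or the IgG genes), 15303 unswitched and 363 not typed. Switched cells made up 0.404% of B cells in WT_1 and up to 9.2% in p21Het_2. The same rule was met by T cells, taken as the type that should lack switched RNA, at 0% in 5 libraries, but at 7.17% in p21Het_2 (85 of 1186 T cells, beside 108 of 1174 B cells), 1.56% in p21mTert_1 (3.18% of its B cells), 0.806% in p21mTertCD_1 (2.96%), 0.583% in p21mTert_3 (4.98%), 0.286% in p21Het_1 (0.62%) and 0.0855% in p21mTertCD_2 (1.5%). In p21Het_2 the B cell share was little above the T cell share. T cells hold little heavy-chain RNA, in p21Het_2 149 CPM of Ighm beside 5366 in its B cells. A few stray UMIs can thus fill 70% in a T cell more easily than in a B cell. The T cell share therefore cannot tell how many switched B cells are background. Of the switched cells 248 were IgG and 71 IgA. The median switched cell was deeper, with 6547 to 15418 UMIs per library against 3436 to 6306 for unswitched cells.

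**Figure D4:**
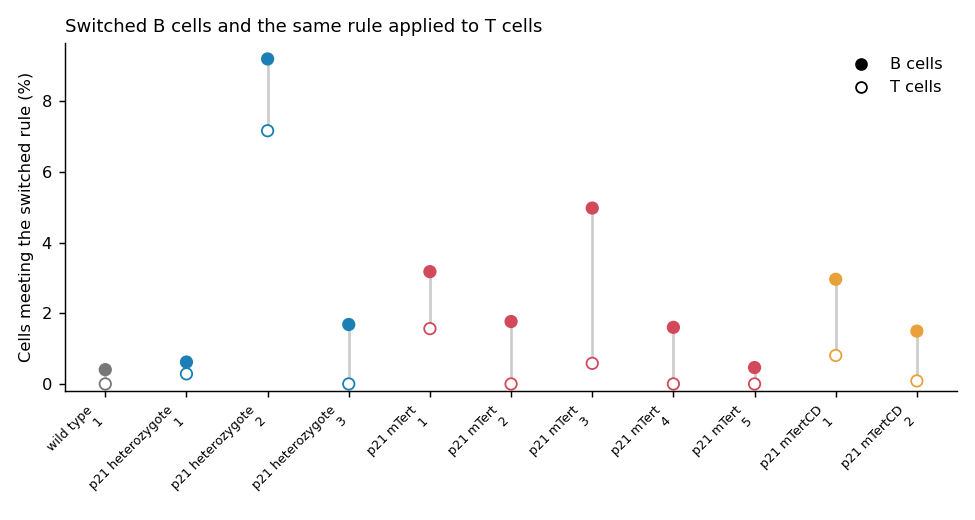
Percent of cells that met the rule for switched B cells in each library, for B cells (filled) and for T cells (open). The T cell share is not an error rate for B cells. p21Het_2 has the highest value in both, 9.2% of B cells and 7.17% of T cells.

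Switched B cells held more Jchain and more Igkc than unswitched cells of the same library. Jchain was 4508 ± 4947 CPM (SD, n = 10) against 263 ± 314 (n = 10), higher in 9 of 10 libraries with a log2 fold change of 4.18 (SE 0.74, edgeR adjusted p = 0.000329). Igkc was 72753 ± 61188 against 10641 ± 3359 CPM, higher in 8 of 10 (2.34, SE 0.43, adjusted p = 0.000494). Of the 10008 genes tested, 1726 (17.2%) passed in the same fit, 7.5% higher and 9.74% lower. Without p21Het_2 the log2 fold changes were 4.32 for Jchain and 2.15 for Igkc, both called. p21mTertCD_1, with 4 switched cells, was left out. Plasma-marked B cells, with at least 5 UMIs of Xbp1, Sdc1, Fkbp11, Prdm1 and Irf4 together, were 3.01% to 19.3% of a library's B cells and carried 6.38% to 95% of its B cell Jchain UMIs. Without them Jchain kept a log2 fold change of 3.9 (adjusted p = 3.7e-08) and Igkc fell to 0.68 (adjusted p = 0.0274), and 1146 of the 1726 genes were called again.

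Of 26 genes of antibody secretion, 23 were higher in switched B cells, beside 7.5% of all genes, and 0 lower, with a median of 1.16 beside -0.06 for all genes. Xbp1, Sdc1, Fkbp11, Prdm1 and Irf4 are in this list and also mark the plasma-marked cells, so their fall without those cells was fixed by the rule. Leaving these genes out, 18 of 21 were higher with all cells (median 0.998). Without the plasma-marked cells 8 of the 26 were higher, beside 5.89% of all genes, and 0 lower, with a median of 0.18, or 0.41 over the 21. The 8 were Eaf2 (2.59 with all cells), Fam46c (2.34), Mzb1 (1.40), Edem1, Ell2, Herpud1, Sec11c and Ssr4. Of 12 partners of the B cell receptor, leaving out Cd79a and Cd79b, which define the class, 8 were lower, beside 9.74% of all genes, and 7 without the plasma-marked cells. They included the follicular B cell genes Cr2 (-1.98), Fcer2a (-1.97) and Fcmr (-1.28) and the regulator Pax5 (-1.07). Of 13 tested switching and survival genes 3 were higher and 4 lower. Bach2 was among the lower ones (-1.28). The named genes with the largest differences were Fscn1 (4.14), Basp1 (193 against 15.8 CPM, 3.65), Gatm (3.15), Sspn (2.92), the replication gene Pclaf (2.83) and Gm5547 (2.56). The lower ones were Gm19951 (-5.14), Gm20696 (-4.27), Rasgef1b (-3.81), the chromatin organiser Satb1 (41.8 against 363 CPM, -3.04), Hbb-bs (-2.87) and Ms4a4c (-2.69). Moving the same way in every library was a condition for being named. Basp1 and Satb1 did so in 10 of 10 libraries, and their switched and unswitched values did not overlap.

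No member passed the test between genotypes. The question of the design is what mTert in p21-positive cells changes in the aged lung, and p21mTert was set against p21Het and against p21mTertCD, and p21mTertCD against p21Het. Over B, plasma and other cells 78 member tests were made with edgeR. None had an adjusted p under 0.05 with edgeR or, where it gave one, with DESeq2, 6 had an unadjusted p under 0.05, and the smallest adjusted p was 0.287. WT has 1 library and entered no test.

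In plasma cells no gene at all passed among 5031 (0% in each contrast with edgeR, 226, 245 and 104 genes with an unadjusted p under 0.05, and 2, 4 and 1 called by DESeq2). Ighd failed the filter on low counts and no other member separated the groups, where 2.98%, 13% and 13% of all genes had library values that do not overlap. Between p21mTert (n = 5) and p21Het (n = 3) the log2 fold change was -0.22 for Ighm (69973 ± 23015 against 79185 ± 37099 CPM), -0.71 for Igha (23489 ± 12052 against 34353 ± 22674), -0.23 for Igkc and -0.27 (SE 0.26) for Jchain (29276 ± 4694 against 33521 ± 10610). For Igha the outcome turned on 1 library: without p21mTertCD_1, which leaves only p21mTertCD_2 with its 8.32 CPM in that group, its difference was called between p21mTert and p21mTertCD (log2 fold change 10.97, edgeR adjusted p = 0.0111) and between p21mTertCD and p21Het (-11.68, adjusted p = 0.00794).

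In B cells 1 of 9 members, Igha, separated p21mTert from p21Het, beside 2.39% of all genes. Its B cell level was 57.2, 34.2, 141, 57.2 and 14.8 CPM in p21mTert and 319, 353 and 620 in p21Het (log2 fold change -2.80, SE 1.03, edgeR adjusted p = 1.00). Between p21mTert and p21mTertCD, Ighm and Ighg1 did so, 2 of 9 members beside 13.3% of all genes. Ighm was 2568, 3472, 3907, 3776 and 3203 CPM in p21mTert and 12954 and 4560 in p21mTertCD (-1.48, SE 0.39, adjusted p = 0.449), where 12954 belongs to p21mTertCD_1 with its 135 B cells. Igha differed by -4.19 in the same contrast (SE 1.13, adjusted p = 0.473). It was called without p21mTertCD_2 (-5.16, edgeR adjusted p = 0.0317), where p21mTertCD_1 is the only library of its group, and its direction turned without p21mTertCD_1 (2.29, adjusted p = 1.00). None of 9 members separated p21mTertCD from p21Het, beside 13.7% of all genes, and the largest difference there relative to its error was that of Ighm (1.25, SE 0.44, adjusted p = 1.00). Over all genes 2 of 13096 passed between p21mTert and p21Het (0.0153%), 1 between p21mTert and p21mTertCD (0.00764%) and 0 between p21mTertCD and p21Het with edgeR, where DESeq2 called 13, 56 and 4 and, in the last contrast, the unadjusted edgeR p of 532 genes was under 0.05. The lists of secretion genes, receptor partners, switching genes and antibody receptors had 0 called members in B and plasma cells in every contrast.

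In other cells 1 of 9 members, Ighg3, separated p21mTertCD from p21Het, beside 14.4% of all genes, at log2 fold change -4.59 (edgeR adjusted p = 0.593). Of 17099 genes 2 (0.0117%), 1 (0.00585%) and 30 (0.175%) passed in the 3 contrasts in the order above with edgeR. DESeq2 called 44, 1042 and 256, and with 1 library left out edgeR called 0 to 6, 1 to 52 and 0 to 150. No member separated p21mTert from p21Het or from p21mTertCD, beside 3.47% and 22.6% of all genes.

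Shares of cells and isotypes did not separate the genotypes either. Plasma cells were 0.663% ± 0.717 (SD, n = 3) of kept cells in p21Het, 0.591% ± 0.436 (n = 5) in p21mTert, 0.847% ± 0.161 (n = 2) in p21mTertCD and 0.275% in WT_1. IgA cells were 30.9% ± 19.9, 32.1% ± 18.9 and 11.5% ± 16.2 of typed plasma cells in p21Het, p21mTert and p21mTertCD. IgM cells were 57.0% ± 22.0, 56.4% ± 14.1 and 81.6% ± 22.6, and IgG cells 12.2% ± 14.9, 11.6% ± 18.9 and 6.96% ± 6.39. Switched cells were 4.06% ± 5.03, 2.46% ± 1.79 and 2.35% ± 1.20 of typed B cells. Ighd was 15.2% ± 9.29, 17.2% ± 4.78 and 7.24% ± 7.06 of the Ighm and Ighd UMIs of B cells, with 2.24% in p21mTertCD_1. Of 27 two-sided exact permutation tests none had a p under 0.05. The smallest was 0.143, adjusted 1.00, and the smallest the design allows is 0.0179 for p21mTert against p21Het, 0.0476 against p21mTertCD and 0.1 for p21mTertCD against p21Het.

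RNA of all 9 genes was also found outside plasma and B cells. Of the members' UMIs in a library, 1.99% to 6.71% lay in other cells. T cells, taken as the type that should lack them, held 66.1 to 638 CPM of Igkc and 3.56 to 36.2 of Jchain. The T level of a gene followed the amount that the plasma and B cells of the same library brought in. Over 11 libraries Pearson's r of the log2 values was 0.89 for Igkc (Spearman's rho 0.85, permutation p adjusted over 9 genes 0.00099 and 0.00462), 0.84 for Jchain (rho 0.83, adjusted p 0.0015 and 0.00628) and 0.66 for Ighm (rho 0.60, adjusted p 0.0239 and 0.0567). The other 6 genes had r from 0.79 to 0.93. Some of these rest on few T cell UMIs. Ighg3 was at 0 in T cells of 6 of 11 libraries and had at most 8 UMIs, and Ighg1 and Ighg2c were at 0 in 3 each. A pseudocount of 0.1 was used for the log2 values. Without the 2 libraries farthest from the median r was 0.74 for Igkc, 0.78 for Jchain and 0.37 for Ighm, so the relation of Ighm rests on those libraries. Within the 8 later libraries r was 0.96, 0.98 and 0.77, and the earlier deposit has too few libraries for a value.

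Ighm did not have the same proportion to Igkc in all of these cells. This ratio was looked at after the values were seen and is a description. A type with under 10 cells or with few Igkc UMIs in a library was left out there. The smallest Igkc count used was 21 UMIs. The median over libraries was 22.9 Ighm UMIs per 100 Igkc UMIs in endothelial cells, 22.5 in plasma cells, 20.8 in alveolar macrophages and 31.6 in B cells. It was 152 in conventional dendritic cells, 143 in C1q macrophages, 132 in monocytes, 95.5 in T cells, 77.9 in NK cells and 65.0 in neutrophils. The ratio exceeded the endothelial one in 11 of 11 libraries for conventional dendritic cells, monocytes, T cells and NK cells, in 10 of 10 for C1q macrophages and in 9 of 11 for neutrophils. In T cells Ighm was 65.5 to 238 CPM (median 122) and in endothelial cells 12.3 to 223 (median 32.2). Fibroblasts (26.2), club cells (24.8) and alveolar type 2 cells (18.2) were near the endothelial value.

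**Figure D5:**
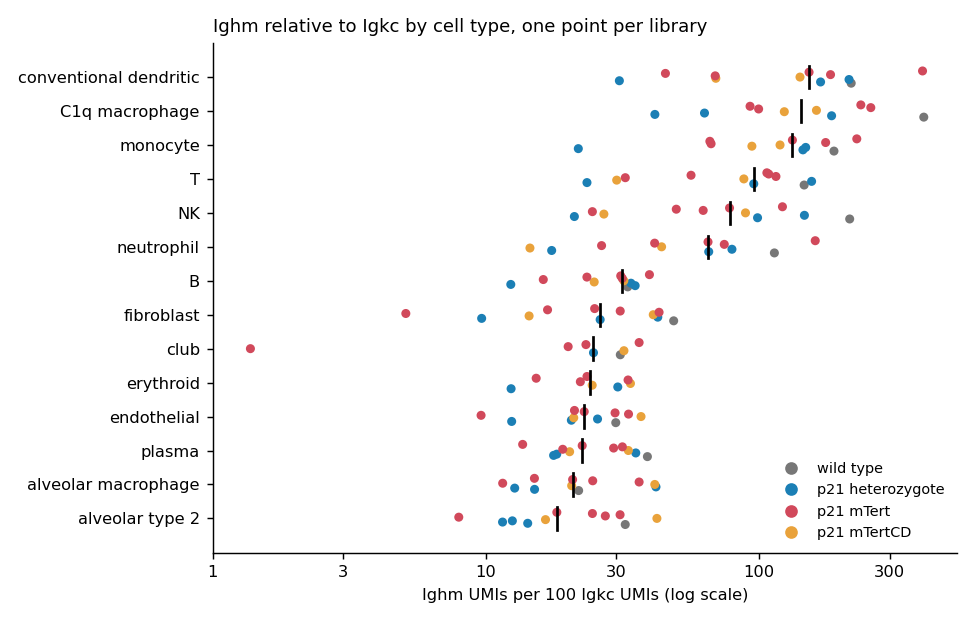
Ighm UMIs per 100 Igkc UMIs (log axis) by cell type, for types with at least 7 libraries. Each point is 1 library and the bars are medians, which lie between 18.2 and 31.6 in alveolar type 2, club, endothelial, fibroblast, erythroid, B and plasma cells and alveolar macrophages and between 65.0 and 152 in T cells, NK cells, neutrophils, monocytes, C1q macrophages and conventional dendritic cells.

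The receptors that bind these antibodies were spread over other cells of the lung. Pigr, which carries IgA and IgM into the airway, was highest in club cells (340 ± 222 CPM, SD, n = 11) and alveolar type 2 cells (313 ± 361, n = 11), whose levels overlapped. Fcmr, the IgM receptor, was 461 ± 112 CPM in B cells and 25.3 in plasma cells. The IgG receptors Fcgr1 (102 ± 31.1), Fcgr2b (438 ± 93.1) and Fcgr3 (584 ± 59.5) had their highest means in C1q macrophages, with monocytes overlapping for Fcgr1 (68.4 ± 40.8) and neutrophils for Fcgr3 (451 ± 48.4). Fcgr4 was 301 ± 127 CPM in monocytes and 177 ± 167 in C1q macrophages, which overlapped. Alveolar macrophages (145 ± 36.7) and neutrophils (124 ± 22.8) overlapped with both. Fcer1a, the IgE receptor chain, was 631 ± 126 CPM in basophils or mast cells (n = 7) and under 1 CPM in every other type, beside the near absence of Ighe RNA. Fcgrt, which recycles IgG, was 177 ± 32.8 CPM in C1q macrophages, 167 ± 51.3 in alveolar macrophages and 153 ± 34.9 in fibroblasts, whose levels overlapped. Conventional dendritic cells (140 ± 24.0) overlapped with all of these.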

How the data were processed

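Per the file headers and the submitters' processing notes, the authors counted UMIs per gene and cell with Cell Ranger on mm10, and the version in the headers differs from that in the series text, so none is given. The deposited matrices hold raw UMI counts, to which the cell filters and the scran normalisation that the labels' protocols describe had not been applied. The filters on UMIs and mitochondrial share were applied here. The 9 genes, the classes, the gene lists and the tests were chosen with earlier results of these data known.

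UMIs were summed per library and class (sums of at least 10 cells, at least 5 for isotypes and switched cells) and tested with the quasi-likelihood test of edgeR 4.0.16 (R 4.3.3) after filterByExpr and TMM, with Benjamini-Hochberg adjustment over all genes and calls under 0.05. DESeq2 1.42.0 was an alternative. Genotype fits used 10 libraries and 1 spread, and isotype and switched fits had library as a block. On data simulated for p21mTert minus p21Het at a dispersion of 0.1, the test recovered 99.5%, 98.5% and 98.5% of 200 genes changed 4-fold in B, plasma and other cells (13012, 4938 and 17044 genes). The more variable switched heavy-chain genes were not simulated. Unswitched members could vary widely too. In this contrast the SE of Jchain was 1.15 in B cells and 0.93 in other cells, and that of Igkc was 0.59 and 0.97. In plasma cells the SE was smaller, 0.26 for Jchain and 0.30 for Igkc. The recovered percentages hold for the simulated dispersion and do not give the power of the test for the members. Shares were compared with exact permutation tests over libraries, and correlations with 100000 permutations. SE is the log2 fold change divided by the square root of F. Other cells took a type from 16 marker sets where exactly 1 set reached 3 UMIs. Doublets stayed in, and an alternative left out the cells with the highest Scrublet scores (scanpy 1.11.5), 5.05% to 8.42% of a library. Genes named in isotype and switched comparisons are up to 6 per direction with the largest fold change among called genes, with at least 20 CPM in the higher class, the same direction in every library holding both, and no antibody gene segments. For each member the 3 most similar genes with at least 20 CPM in a cell type were taken. Python 3.11.15 ran pandas 2.3.3, numpy 2.4.6, scipy 1.17.1 and matplotlib 3.10.9. Replicate numbers shared by p21mTert and p21Het titles did not pair the libraries.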

Additional observations from a re-analysis of the deposited data

Results flagged for a closer look

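Dixon's test was run on the p21mTert group, the only genotype with at least 4 libraries, and marked 1 of its 5 libraries as standing apart from the other 4 for 11 of 36 quantities. Chance marks about 1 in 20 only if values are normally distributed. The marked library was the highest of its group in all 11, and levels with a long upper tail are marked more often. The 11 marks therefore cannot be set against that rate, and they serve as a description. The quantities are also not independent, since many are the same genes in several cell classes of 1 library.

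p21mTert_1 stood apart in IgG and Ighg2c. IgG cells were 44.8% of its typed plasma cells and 0% to 7.14% of those of the others. Its Ighg2c level was 35848 CPM in plasma cells (others 0 to 4384), 1966 in B cells (2.38 to 150) and 29.2 in T cells (1.10 to 4.27). Its T cells also held 40.7 CPM of Ighg2b, beside 0.411 to 11.2. p21mTert_1 is the one p21mTert library of the earlier deposit and the one labelled 20 months old, so deposit, age label and library cannot be told apart.

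p21mTert_3 stood apart in plasma cell number, with 1.36% of kept cells against 0.297% to 0.466%. Its B cells held 168 CPM of Ighg3 (others 7.27 to 12.4) and 209 CPM of Ighg1 (7.08 to 19.0). Its T cells held 238 CPM of Ighm (89.5 to 122) and 21.6 of Ighg1 (0.509 to 3.81). p21mTert_2 stood apart in Ighg3 of plasma cells, at 3982 CPM against 3.57 to 25.1. Its plasma class has 30 cells.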

How the results depend on the processing

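Differences are given as the first group minus the second, in percentage points for shares and as log2 fold changes for genes. No planned or added setting gave a member a call between genotypes except those named in the report and, in plasma cells without the low-count filter, Ighg1 and Ighg3. Of 584 values of counts, shares and correlations under alternatives, 441 stayed, and of 1285 values of single genes 1135 did. The cause of a change was not tested. Plasma cells could not be fitted with cells of both classes left out, since too few libraries remain.

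With DESeq2 the called genes were 13 for p21mTert minus p21Het, 56 with p21mTertCD subtracted and 4 for p21mTertCD minus p21Het in B cells, 44, 1042 and 256 in other cells and 2, 4 and 1 in plasma cells, and 101 for IgA minus IgG and 23 for IgG minus IgM. With no low-count filter they were 8, 5 and 1 in B cells, 156, 189 and 114 in plasma cells, 406 for IgA minus IgM, 122 for IgG minus IgM and 157 for IgA minus IgG, and Igkc for IgG minus IgM was -0.14. With a class threshold of 5 UMIs plasma cells had 1 called gene for p21mTert minus p21mTertCD. The share of plasma cells was then 0.0172 for p21mTert minus p21Het, that of switched cells -2.10 for p21mTert minus p21mTertCD and 0.160 for p21mTertCD minus p21Het, and the members in other cells -0.0858 (log2 CPM) for the latter. With isotypes called at 90%, IgM cells were 0.473 for p21mTert minus p21Het and switched cells -0.0789 for p21mTert minus p21mTertCD.

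With doublets left out, IgA was -7.33, IgG 2.53 and IgM 4.79 for p21mTert minus p21Het, called genes were 0 in B cells (p21mTert minus p21mTertCD), 16 in other cells (p21mTertCD minus p21Het) and 19 for IgG minus IgM, and Jchain for IgA minus IgM was 0.00598. With no upper UMI limit the same shares were -4.89, 2.42 and 2.47, called genes were 0 in B cells (p21mTert minus p21mTertCD), 4 in other cells (p21mTert minus p21Het), 3 (p21mTertCD minus p21Het) and 24 for IgG minus IgM, and switched cells -1.52 for p21mTert minus p21mTertCD. For p21mTertCD minus p21Het the members were then -2.21 of plasma UMIs and -0.0012 in other cells. Ighg2c in plasma cells was 0.0643 for p21mTert minus p21Het, Jchain 0.48 for IgA minus IgM and Scd1 0.43 for IgA minus IgG. With cells of both classes left out the members were -14.9 of plasma UMIs for p21mTertCD minus p21Het. This is p21mTertCD_1 minus p21Het_2 alone, the only libraries with at least 10 such cells, since 433 of 462 plasma cells met both rules.

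Without plasma-marked B cells, Ighd was 7.85 points of Ighm and Ighd UMIs higher in p21mTert than in p21mTertCD B cells (exact permutation p = 0.0476, the smallest possible), B cells had 5 (p21mTert minus p21Het) and 0 (p21mTert minus p21mTertCD) called genes, Igha was 0.42 for p21mTert minus p21mTertCD and Ighg1 1.08 for p21mTert minus p21Het. In the later deposit alone, IgG was -3.72 and switched cells -0.0953 for p21mTert minus p21mTertCD, plasma cells -0.0433 and the members in other cells -0.0597 for p21mTertCD minus p21Het, and r was 0.771 for Ighm and 0.982 for Jchain. A term for the deposit left 0 called genes in B cells for p21mTert minus p21mTertCD. Without the 2 farthest libraries r was 0.675 for Igha, 0.645 for Ighd, 0.627 for Ighg1, 0.669 for Ighg2c, 0.370 for Ighm and 0.745 for Igkc.

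The replicate block used the 2 numbers that p21mTert and p21Het titles share, whose libraries did not deviate together (r 0.084 and -0.202 in B cells, -0.067 and -0.255 in plasma cells). With the replicate block IgM was 0.719 for p21mTert minus p21Het, called genes were 0 in B, 0 in other and 5 in plasma cells, and in B cells Ighg1 was 0.19 and Ighg2b 1.77.

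With 1 library left out at a time, p21mTert minus p21Het ran from -2.29 to 10.3 for the share of B cells, -0.299 to 0.342 for plasma cells, -5.37 to 12.7 for IgA, -8.92 to 7.71 for IgG, -9.84 to 11.6 for IgM, -2.64 to 6.64 for Ighd, -3.32 to 1.29 for switched cells and -1.22 to 0.60 for members in other cells. p21mTert minus p21mTertCD ran from -3.72 to 9.12 for IgG and -0.739 to 0.954 for switched cells. p21mTertCD minus p21Het ran from -20.9 to 0.913 for B cells, -0.0433 to 0.597 for plasma cells, -11.3 to 3.11 for IgG, -3.42 to 1.18 for switched cells, -0.69 to 1.12 for members in other cells and -1.04 to 9.06 for members in plasma UMIs. Called genes ran, in the order of contrasts above, from 0 to 5, 0 to 19 and 0 to 2 in B cells, 0 to 6, 1 to 52 and 0 to 150 in other cells and 0 to 0, 0 to 1 and 0 to 1 in plasma cells, and from 118 to 223 for IgA minus IgM and 7 to 56 for IgA minus IgG. In B cells for p21mTert minus p21Het, Ighd ran from -0.0537 to 0.49, Ighg1 -3.57 to 4.39, Ighg2b -1.54 to 4.81, Ighg2c -5.39 to 6.83, Ighg3 -0.87 to 2.00, Ighm -0.46 to 0.24, Igkc -1.22 to 0.61 and Jchain -2.0 to 1.17, turning without p21Het_2 except Ighg3, which turned without p21mTert_3. In plasma cells Ighg2c ran from -3.73 to 15.66, Ighg3 -1.23 to 4.77, Ighm -0.49 to 0.0884 and Igkc -0.41 to 0.0184. Igha in B cells ran from -5.16 to 2.29 for p21mTert minus p21mTertCD, and Igkc from -0.18 to 0.16 for IgG minus IgM. What depth limits was not tested; the smallest plasma class had 13 cells.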

Other observations

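Several genes that separated IgA from IgM plasma cells differed between libraries within IgA cells. Pycard was 1384 to 2302 CPM in IgA cells of the 4 p21mTert libraries with at least 5 such cells, and 202 to 370 in those of p21Het_1, p21Het_2 and p21mTertCD_1. Anxa2 was 252 to 700 CPM against 26.6 to 172, and Crip1 2500 to 4176 against 449 to 1393. These genes were singled out after their values were seen, and the difference was not tested. The IgA sums rest on 7 to 25 cells per library.

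Heavy-chain variable genes pointed to shared segments in some libraries. Ighv1-53 led the IgM plasma cells of p21mTert_3 (17 of 57 cells with a variable gene call), p21mTertCD_1 (5 of 30) and p21mTertCD_2 (10 of 31). Variable genes have close copies, so the gene named is uncertain. Plasmacytoid dendritic cells held 7322 CPM of Ighm and 16488 of Igkc in p21mTert_2 (14 cells), and 492 and 640 CPM of Ighm in p21Het_2 (31 cells) and p21mTertCD_2 (15 cells). Those of p21Het_1 (10 cells), p21mTert_4 (10 cells) and p21Het_3 (17 cells) had too few Igkc UMIs for the ratio above and are not given.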
